A study of Arabidopsis thaliana with 12 samples.

Results

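In shoots of Arabidopsis seedlings, 137 genes were displaced to opposite sides of the wild type by the brm-1 and the ga1-3 mutation, out of 16764 probe sets measured (each probe set is called a gene here). They were chosen by their measured values. The mean log2 signals of brm-1 and of ga1-3 had to differ from the wild-type mean with opposite signs, each by at least 1.5-fold, and no array of either mutant could fall within the span of the wild-type arrays. Of the 144 probe sets that met these conditions, 7 were set aside (GA3OX1, GA20OX2, SCL3, HFR1, SPL3, EXPA8 and ESM1), which left 71 genes higher in brm-1 and lower in ga1-3, and 66 genes lower in brm-1 and higher in ga1-3. The question asked of them was which of both mutations the ga1-3/brm-1 double mutant follows.

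Total RNA of shoots was measured on ATH1 arrays, 3 per genotype, in ga1-3/brm-1, brm-1, ga1-3 and wild-type seedlings, all in the Col-0 ecotype and 18 days old. The brm-1 line is a null mutant of BRM, whose homozygotes are sterile, so that they were picked by genotype from segregating progeny. The ga1-3 line lacks GA1 function and was brought into Col-0 by crossing. Seeds of ga1-3 and of the double mutant were soaked in gibberellin and washed before sowing. The methods call the 3 samples of a genotype biological replicates, without saying how the plants were grown or pooled for each, and p-values measure the spread between these samples.

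BRM (BRAHMA) is the ATPase of a SWI/SNF complex, which uses ATP to move or evict nucleosomes and so alters the access of transcription factors to DNA. GA1 encodes the enzyme of the first committed step of gibberellin synthesis, and gibberellin acts by triggering the breakdown of DELLA proteins, which restrain growth through the transcription factors they bind. Both brm null and gibberellin-deficient plants are dwarfed and dark green.

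The BRM probe set stood at 2.72, 3.01 and 2.92 on the log2 scale in the double mutant, at 2.78, 3.01 and 2.87 in brm-1, at 8.28, 8.22 and 7.93 in ga1-3 and at 7.94, 7.87 and 7.84 in wild type. These levels follow the genotype labels. No probe set is named GA1 here. Markers of green tissue were abundant: RCA, the Rubisco activase, averaged 14.09 in the double mutant, 13.88 in brm-1, 14.46 in ga1-3 and 14.28 in wild type. CA1, a carbonic anhydrase of the chloroplast and the other green marker measured under a name, averaged 12.35 ± 0.10 in the double mutant, 11.85 ± 0.55 in brm-1, 12.73 ± 0.25 in ga1-3 and 12.97 ± 0.07 in wild type (mean ± SD over 3 arrays, as in all averages given here). It fell by 1.12 ± 0.23 in brm-1 (log2 difference with the standard error, limma adjusted p = 0.00646) and was not called in the other mutants. Of 7 root markers only PYK10, a beta-glucosidase, was measured under a name, with 12.43 ± 0.25 in the double mutant, 10.23 ± 0.59 in brm-1, 11.58 ± 0.22 in ga1-3 and 9.87 ± 0.51 in wild type. It rose by 2.55 ± 0.31 in the double mutant (adjusted p = 0.000157) and by 1.71 ± 0.31 in ga1-3 (adjusted p = 0.00563), and the part of tissue makeup in the levels of the 137 genes was not tested. Neither of 2 trichome markers was measured under a name. Replicate 3 of brm-1 differed most from the arrays of its own genotype, with a score of 37.8 on the first component of the within-genotype variation against -20.0 and -17.8 for the other brm-1 arrays and -9.80 to 6.99 for the 9 arrays of the other genotypes.

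The values that chose the genes are a description. In the genes higher in brm-1 the median difference from the wild type was 1.09 in brm-1 (0.59 to 4.01) and -0.93 in ga1-3 (-4.04 to -0.59). In the genes lower in brm-1 it was -1.01 in brm-1 (-3.82 to -0.59) and 0.98 in ga1-3 (0.59 to 2.30). Both differences also passed the limma call (a fold change over 1.5 with a p under 0.05 after Benjamini-Hochberg adjustment) in 80 of the 137 genes. By that call 7.09% of all probe sets were higher and 7.58% lower in brm-1, and 4.06% were higher and 4.74% lower in ga1-3. The rule used these contrasts, so nothing is read from the comparison. Just inside its limit were TET3, AT5G45950 and YLS2, whose smaller differences were 0.587, 0.588 and 0.588, and just outside it were MEE55, MEE47 and AT3G57630 with 0.584, 0.584 and 0.582. When the genes were chosen again without replicate 1, 2 or 3 of each of the brm-1, ga1-3 and wild-type lines, 209, 199 and 161 genes met the conditions, and in 78.5%, 80.9% and 81.4% of them the arrays left out still differed in both directions.

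**Figure D1:**
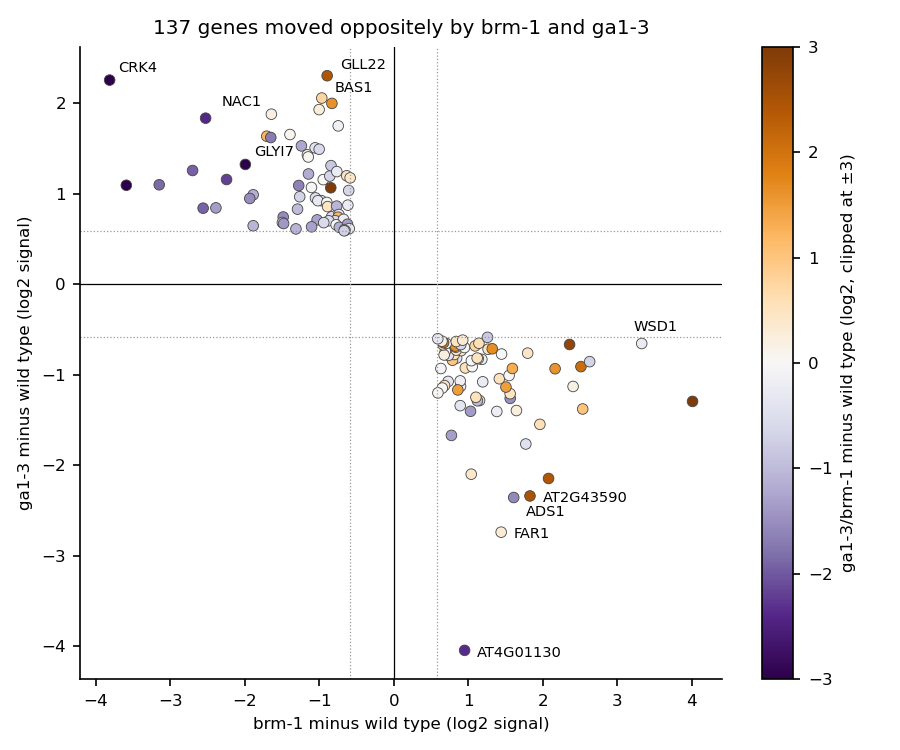
Each point is 1 of the 137 genes, placed by its mean difference from the wild type in brm-1 (x axis) and in ga1-3 (y axis), both in log2 signal, and coloured by the difference of ga1-3/brm-1 from the wild type, with colours clipped at 3. Dotted lines mark the smallest difference the rule allowed. Purple points (lower in the double mutant) prevail at upper left, where brm-1 is lower, while orange, pale and a few purple points share the lower right.

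The double mutant lay closer to brm-1 than to ga1-3 in most of these genes, and about as often as among other genes. Its place was measured as a position between the single mutants, 0 at the brm-1 mean and 1 at the ga1-3 mean. The median position over the 137 genes was 0.31 (quartiles 0.131 and 0.546), and 93 genes (67.9%) lay nearer to brm-1. Among all probe sets 63.7% lay nearer to brm-1, and among the 866 others whose brm-1 and ga1-3 means were at least as far apart as the rule requires it was 66.4%, with a median position of 0.268. The share of the 137 genes is therefore near this background. It was unlike between both directions: 52 of the 66 genes lower in brm-1 (78.8%, median position 0.254) lay nearer to brm-1, and 41 of the 71 genes higher in brm-1 (57.7%, median position 0.389), a difference that was not tested. Both background shares were taken over both directions together. Signals near the array background (a mean below 4.70) were also split by direction. The brm-1 mean was near background in 31 of the 66 genes lower in brm-1 and in 2 of the 71 others. The ga1-3 mean was near background in 4 of the 66 and in 40 of the 71. The part of this limit in the positions was not tested. In 23 genes the double mutant lay beyond the brm-1 mean, and in 5 genes beyond the ga1-3 mean.

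**Figure D2:**
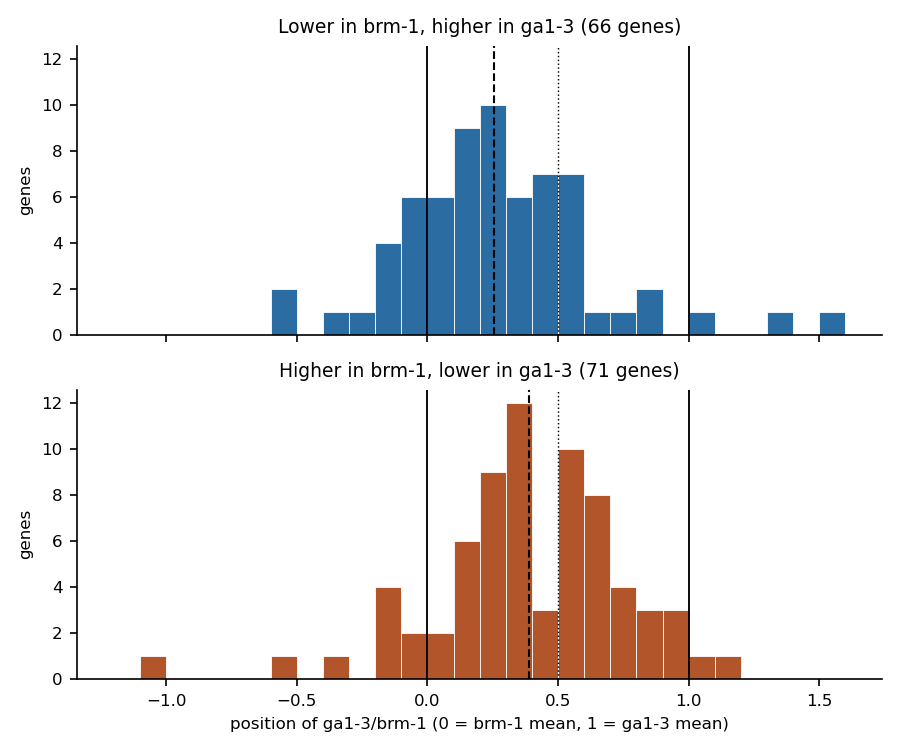
The number of genes (y axis) by the position of the double mutant between brm-1 (0, solid line) and ga1-3 (1, solid line), with the genes lower in brm-1 above and those higher in brm-1 below. Dashed lines mark the medians of 0.254 and 0.389, the dotted line marks 0.5, and 1 gene at 2.03 is drawn in the last bar of the upper panel.

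Against the wild type, ga1-3/brm-1 was called in the brm-1 direction in 46 genes, in the ga1-3 direction in 12 genes, and was not called in 79 genes (limma fitted on all 16764 probe sets, with p-values adjusted over all of them). The arrays of the double mutant did not choose the genes, but the wild-type arrays did. Of the 66 genes lower in brm-1, 30 fell in the double mutant (45.5%, against 11.6% of all probe sets) and 5 rose (7.58%, against 12% of all probe sets). Of the 71 genes higher in brm-1, 16 rose (22.5%, against the same 12%) and 7 fell (9.86%, against 11.6%). Counted by ranges, all 3 arrays of the double mutant lay outside the wild-type arrays on the brm-1 side in 62 genes and on the ga1-3 side in 20 genes, and they overlapped the wild-type range in 55 genes. Over all probe sets 25.4% lay above and 27.8% below the wild-type range. The call was kept with each of the 12 arrays left out in turn in 38 of the 46 genes and in 11 of the 12 genes.

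The double mutant differed from ga1-3 in 110 of the 137 genes and from brm-1 in 56 genes. It differed from ga1-3 alone in 74, from brm-1 alone in 20, from both in 36 and from neither in 7. Over all probe sets, 10.8% were higher and 10.1% lower in the double mutant than in ga1-3, and 4.98% were higher and 3.78% lower than in brm-1. Since the single-mutant arrays were used to choose the genes for their distance from the wild type, a larger share than in all probe sets had to differ from at least 1 of them, and the counts are given as a description. Of the 79 genes not called against the wild type, 26 differed from both single mutants. A missing call does not place the double mutant at the wild-type level: its arrays overlapped the wild-type range in 55 of the 137 genes. With each of the 12 arrays left out in turn, calls against brm-1 were kept, among others, in 7 fits for FLA11 and UGT84A3, in 8 for HB-8, in 9 for FAR1 and in 10 for GLYI7 and AT2G21080, and calls against ga1-3 in 9 fits for TCP15, in 10 for HB-8 and in 11 for UGT74F2.

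**Figure D3:**
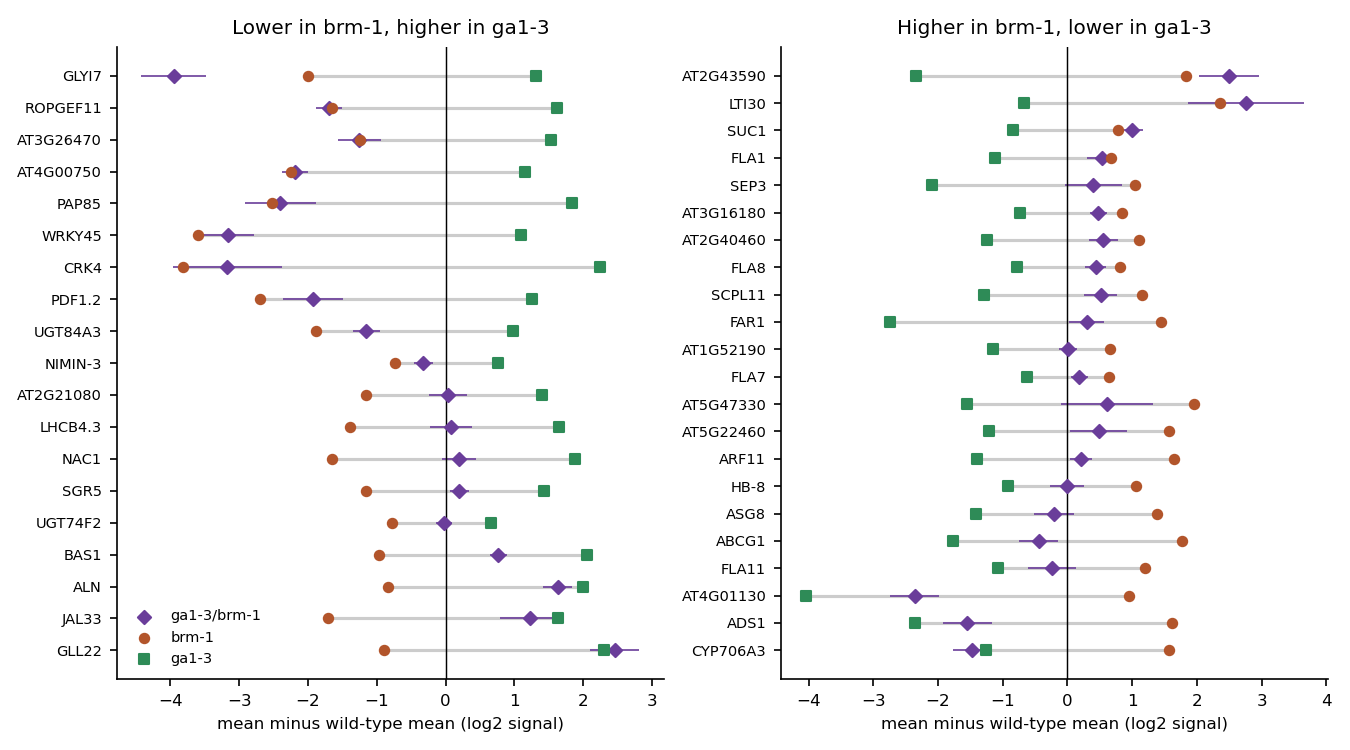
Mean difference from the wild type (x axis, log2 signal) of the named genes, with those lower in brm-1 at left and those higher in brm-1 at right, ordered by the position of the double mutant. Diamonds are ga1-3/brm-1 with the standard error of the limma fit, circles brm-1 and squares ga1-3, and grey bars join both single mutants. The diamonds run from the circles at the top to the squares at the bottom.

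Among the genes lower in brm-1 and higher in ga1-3 were WRKY45, PDF1.2, CRK4 and EXO70B2, in which the double mutant was low as well. WRKY45, a WRKY transcription factor, had log2 signals of 4.58, 4.45 and 4.81 in the double mutant, 4.85, 4.65 and 3.06 in brm-1, 8.76, 9.11 and 8.75 in ga1-3 and 7.63, 7.94 and 7.76 in wild type. The double mutant lay far below ga1-3 and the wild type, and it fell by 3.17 ± 0.38 against the wild type (adjusted p = 0.000135). Its mean and that of brm-1 were near the array background (below 4.70, the 26th percentile of the table's signals), so the fall may be understated and both lines cannot be ordered. PDF1.2, a plant defensin that is a standard marker of jasmonate and ethylene responses, had 5.31, 4.80 and 4.35 in the double mutant, 3.49, 4.40 and 4.24 in brm-1, 7.43, 7.77 and 8.80 in ga1-3 and 6.93, 7.32 and 5.99 in wild type. It fell by 1.93 ± 0.43 in the double mutant against the wild type (adjusted p = 0.00579), without overlap.

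CRK4, a cysteine-rich receptor-like kinase, had 2.34, 5.78 and 2.30 in the double mutant, 2.70, 2.39 and 3.39 in brm-1, 8.27, 9.57 and 8.84 in ga1-3 and 6.14, 6.87 and 6.92 in wild type. The second array of the double mutant stood apart, yet all 3 were below the wild type, and the fall of 3.17 ± 0.79 was called (adjusted p = 0.0101). The difference was -4.33 without that array and -2.59 without the third, and the means of the double mutant and of brm-1 were near background. EXO70B2, an exocyst subunit with a role in immunity, was named after its values were seen. It had 7.04, 6.95 and 5.86 in the double mutant, 6.39, 6.37 and 6.34 in brm-1, 7.94, 8.60 and 8.34 in ga1-3 and 7.39, 7.86 and 7.80 in wild type, and it fell by 1.06 ± 0.28 in the double mutant (adjusted p = 0.0141), a call kept in 11 of the 12 fits with 1 array left out.

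JAL33, a jacalin-related lectin, took the other course. It had 9.03, 8.42 and 8.86 in the double mutant, 5.42, 7.05 and 5.02 in brm-1, 9.31, 9.08 and 9.13 in ga1-3 and 7.14, 8.07 and 7.40 in wild type. The double mutant differed from brm-1 by 2.94 ± 0.44 (adjusted p = 0.00281) and was not called against ga1-3 (-0.40 ± 0.44, adjusted p = 0.53) or against the wild type (1.23 ± 0.44, adjusted p = 0.0507). A group of 10 defence and salicylate or jasmonate genes was put together after the values were seen, so its counts are a description, with 8 lower in brm-1. In 8 of the 10 the double mutant lay nearer to brm-1 (63.7% of all probe sets did), and it was called in the brm-1 direction in 6 and in the ga1-3 direction in none (12% of all probe sets were higher and 11.6% lower in the double mutant).

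A pair of genes of the salicylate list were intermediate. UGT74F2, a glucosyltransferase that forms salicylate glucose ester, had 10.23, 10.27 and 9.91 in the double mutant, 9.29, 9.40 and 9.43 in brm-1, 10.60, 10.91 and 10.91 in ga1-3 and 10.10, 10.19 and 10.17 in wild type. The double mutant overlapped the wild type and differed from brm-1 by 0.76 ± 0.12 (adjusted p = 0.00297) and from ga1-3 by -0.67 ± 0.12 (adjusted p = 0.00171). NIMIN-3, which encodes a protein that binds the salicylate co-activator NPR1, averaged 8.20 ± 0.23 in the double mutant, 7.79 ± 0.09 in brm-1, 9.29 ± 0.21 in ga1-3 and 8.52 ± 0.09 in wild-type shoots. Its difference of -0.32 ± 0.14 between the double mutant and the wild type was not called (adjusted p = 0.0869).

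In the transcription factors NAC1 and SGR5 the double mutant was intermediate. NAC1, a NAC factor of auxin signaling in lateral root formation, averaged 5.86 ± 0.13 in the double mutant, 4.02 ± 0.57 in brm-1, 7.54 ± 0.23 in ga1-3 and 5.67 ± 0.24 in wild type. SGR5, a zinc finger protein needed for shoot gravitropism, had 6.25, 6.43 and 6.44 in the double mutant, 4.93, 4.86 and 5.23 in brm-1, 7.86, 7.46 and 7.48 in ga1-3 and 6.06, 6.27 and 6.18 in wild type. Both overlapped the wild type in the double mutant and were apart from each single mutant. The brm-1 mean of NAC1 was near background, so its distance from brm-1 may be understated. NAC1 differed from brm-1 by 1.84 ± 0.25 (adjusted p = 0.00169) and from ga1-3 by -1.68 ± 0.25 (adjusted p = 0.000703), and SGR5 by 1.36 ± 0.13 (adjusted p = 0.000319) and -1.23 ± 0.13 (adjusted p = 0.000138). MYB60, a factor of stomatal opening named after its values were seen, averaged 7.12 ± 0.39 in the double mutant, 6.75 ± 0.15 in brm-1, 8.37 ± 0.22 in ga1-3 and 7.70 ± 0.13 in wild type. Of the 9 transcription regulators lower in brm-1, grouped after the values were seen, the double mutant fell against the wild type in 3 (11.6% of all probe sets fell) and was not called in 6, with a median position of 0.251. None of the 5 higher in brm-1 was called.

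In a few of the genes lower in brm-1 the double mutant went with ga1-3. BAS1, a cytochrome P450 that inactivates brassinosteroids, had 6.53, 6.39 and 6.40 in the double mutant, 4.65, 4.90 and 4.56 in brm-1, 7.97, 7.51 and 7.71 in ga1-3 and 5.58, 5.72 and 5.73 in wild type. All 4 lines were apart, and the double mutant rose by 0.77 ± 0.13 against the wild type (adjusted p = 0.000997) while staying 1.29 ± 0.13 below ga1-3. ALN, the allantoinase of purine breakdown, had 9.58, 9.47 and 9.30 in the double mutant, 7.17, 7.21 and 6.58 in brm-1, 9.83, 9.52 and 10.09 in ga1-3 and 7.66, 8.15 and 7.64 in wild type. It rose by 1.63 ± 0.21 in the double mutant (adjusted p = 0.000208) and was not called against ga1-3.

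GLL22, a GDSL-type lipase-like protein whose probe set may also detect related transcripts, had 10.06, 9.85 and 9.91 in the double mutant, 5.52, 7.12 and 7.12 in brm-1, 9.88, 9.69 and 9.78 in ga1-3 and 7.14, 7.63 and 7.68 in wild type. The double mutant overlapped ga1-3 and rose by 2.46 ± 0.36 against the wild type (adjusted p = 0.000464). ARP9, an actin-related protein named after its values were seen, averaged 6.98 ± 0.10 in the double mutant, 5.02 ± 0.16 in brm-1, 6.51 ± 0.46 in ga1-3 and 5.77 ± 0.21 in wild type, and it rose in the double mutant (adjusted p = 0.00112). These 4 and 1 probe set with no gene name, which rose by 3.03, were the 5 genes of this direction called with ga1-3.

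Enzymes and growth genes of this direction were spread over the whole range of positions. GLYI7, of the glyoxalase I family, averaged 3.81 ± 0.30 in the double mutant, 5.77 in brm-1 (where 1 array stood higher, at 7.15), 9.08 ± 0.37 in ga1-3 and 7.76 ± 0.20 in wild type. The double mutant, near background, lay below both single mutants, 3.95 ± 0.47 under the wild type (adjusted p = 0.000143) and 1.95 ± 0.47 under brm-1 (adjusted p = 0.0218). PAP85, a vicilin-like protein annotated as a nutrient reservoir, averaged 4.39 ± 1.06 in the double mutant, 4.26 ± 0.88 in brm-1, 8.62 ± 0.27 in ga1-3 and 6.79 ± 0.29 in wild type, and the double mutant, near background like brm-1, fell by 2.40 ± 0.52 (adjusted p = 0.00453).

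ROPGEF11, an exchange factor for ROP GTPases, averaged 3.37 ± 0.01 in the double mutant, 3.41 ± 0.10 in brm-1, 6.68 ± 0.42 in ga1-3 and 5.06 ± 0.25 in wild type. AT4G00750, annotated as a dehydration-responsive protein, averaged 3.95 ± 0.25 in the double mutant, 3.90 ± 0.32 in brm-1 and 6.14 ± 0.27 in the wild type, with the double mutant 3.34 ± 0.18 below ga1-3. In both genes the double mutant was at the brm-1 level near the array background, so these falls may be understated. AT3G26470, of unknown function, was also near background in the double mutant (3.12 ± 0.21), in brm-1 (3.13 ± 0.28) and in the wild type (4.37 ± 0.41), whereas ga1-3 averaged 5.90 ± 0.67. AT1G22690, annotated as gibberellin-responsive and named after its values were seen, was well above background and showed the same order, with 10.45, 10.78 and 10.89 in the double mutant, 10.57, 11.08 and 10.60 in brm-1, 13.00, 12.69 and 13.24 in ga1-3 and 12.20, 12.31 and 12.20 in wild type. It fell by 1.53 ± 0.18 in the double mutant (adjusted p = 0.000115).

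UGT84A3, a glucosyltransferase that makes sinapoyl glucose, averaged 4.82 ± 0.25 in the double mutant, 4.09 ± 0.39 in brm-1, 6.96 ± 0.24 in ga1-3 and 5.97 ± 0.11 in wild type, and fell by 1.15 ± 0.20 in the double mutant (adjusted p = 0.00133). LHCB4.3, a minor antenna protein of photosystem II, averaged 7.27 ± 0.22 in the double mutant, 5.79 ± 0.73 in brm-1, 8.84 ± 0.24 in ga1-3 and 7.19 ± 0.23 in wild type. AT2G21080, of unknown function, had 6.13, 6.46 and 6.31 in the double mutant, 5.31, 5.70 and 4.35 in brm-1, 7.84, 7.56 and 7.62 in ga1-3 and 6.33, 6.44 and 6.04 in wild type. In LHCB4.3 and AT2G21080 the double mutant overlapped the wild type and was called against each single mutant.

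**Figure D4:**
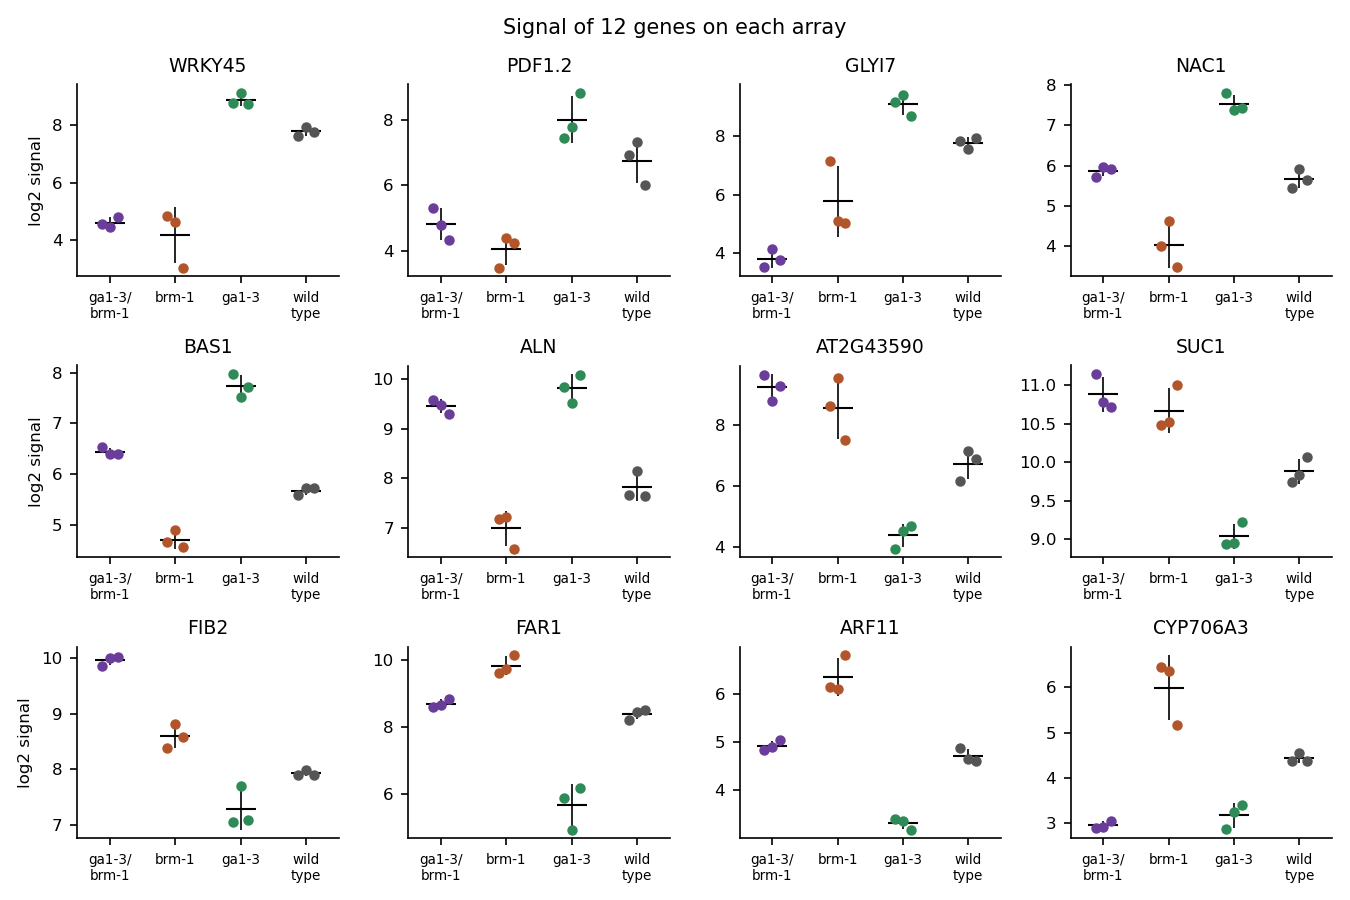
Log2 signal (y axis) of 12 genes on each array, in ga1-3/brm-1, brm-1, ga1-3 and the wild type (x axis). Points are the 3 arrays of a genotype, and the black dash and bar give their mean and SD. WRKY45, PDF1.2, GLYI7, AT2G43590, SUC1 and FIB2 were called in the double mutant on the brm-1 side of the wild type, BAS1, ALN and CYP706A3 on the ga1-3 side, and NAC1, FAR1 and ARF11 were not called.

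Among the genes higher in brm-1 and lower in ga1-3, those called with brm-1 in the double mutant included transport, defence and nucleolar genes. AT2G43590, of the chitinase family, had 9.62, 8.77 and 9.28 in the double mutant, 8.62, 9.53 and 7.51 in brm-1, 3.95, 4.53 and 4.68 in ga1-3 and 6.16, 7.16 and 6.87 in wild type. The double mutant overlapped brm-1 and rose by 2.49 ± 0.46 against the wild type (adjusted p = 0.00194), and ga1-3 was near background. SUC1, a sucrose-proton symporter of the plasma membrane, had 11.14, 10.78 and 10.71 in the double mutant, 10.49, 10.52 and 11.00 in brm-1, 8.94, 8.95 and 9.23 in ga1-3 and 9.74, 9.84 and 10.06 in wild type. It rose by 1.00 ± 0.17 in the double mutant (adjusted p = 0.00109), which again overlapped brm-1.

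In a few more genes the mean of the double mutant lay beyond that of brm-1. FIB2, a fibrillarin of the nucleolus that takes part in rRNA methylation and was named after its values were seen, averaged 9.97 ± 0.09 in the double mutant, 8.60 ± 0.22 in brm-1, 7.28 ± 0.37 in ga1-3 and 7.93 ± 0.05 in wild type. The double mutant was above every other array, by 1.37 ± 0.17 over brm-1 (adjusted p = 0.00105) and by 2.04 ± 0.17 over the wild type (adjusted p = 1.8e-05). AT3G05730, a defensin-like protein also named after its values were seen, averaged 12.65 ± 0.42 in the double mutant, 12.03 ± 0.27 in brm-1 and 11.17 ± 0.31 in the wild type, and lower in ga1-3. It rose by 1.48 ± 0.22 in the double mutant against the wild type (adjusted p = 0.000537). LTI30, a dehydrin of cold and drought responses, had 7.97, 8.07 and 7.27 in the double mutant, 5.71, 6.24 and 10.17 in brm-1, 4.48, 4.26 and 4.31 in ga1-3 and 4.93, 5.23 and 4.89 in wild type. The double mutant overlapped brm-1, whose high mean rests on the third array, and its rise of 2.75 ± 0.89 in the double mutant (adjusted p = 0.0332) was no longer called without any 1 of the arrays of the double mutant or the wild type.

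Several genes of surface lipids and cell walls were higher in brm-1 and not called with it in the double mutant. FAR1, a fatty acyl-CoA reductase that makes alcohols for suberin, had 8.58, 8.64 and 8.84 in the double mutant, 9.60, 9.74 and 10.14 in brm-1, 5.87, 4.92 and 6.15 in ga1-3 and 8.21, 8.46 and 8.49 in wild type. ABCG1, a half-size ABC transporter linked to suberin formation, averaged 5.82 ± 0.07 in the double mutant, 8.04 ± 0.74 in brm-1, 4.50 ± 0.23 in ga1-3 and 6.27 ± 0.24 in wild type. In both genes the double mutant was apart from all other arrays and nearest to the wild type, with a difference of 0.30 ± 0.27 for FAR1 (adjusted p = 0.427) and -0.45 ± 0.30 for ABCG1 (adjusted p = 0.275). ADS1, an acyl desaturase, had 3.33, 3.50 and 3.57 in the double mutant, 7.19, 6.92 and 5.76 in brm-1, 3.11, 2.73 and 2.14 in ga1-3 and 4.47, 5.12 and 5.47 in wild type. It fell by 1.55 ± 0.38 in the double mutant (adjusted p = 0.009), on the ga1-3 side and near background in both.

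Of the fasciclin-like arabinogalactan proteins, which are glycoproteins of the cell surface and wall, FLA1, FLA7, FLA8 and FLA11 were among these genes. FLA8 had 9.25, 9.18 and 9.34 in the double mutant, 9.58, 9.61 and 9.72 in brm-1, 8.33, 8.19 and 7.61 in ga1-3 and 8.96, 8.78 and 8.73 in wild type, so that the lines did not overlap. FLA1 averaged 7.12 ± 0.45 in the double mutant, 7.27 ± 0.20 in brm-1, 5.47 ± 0.08 in ga1-3 and 6.59 ± 0.33 in wild type. FLA7 averaged 7.41 ± 0.24 in the double mutant, 7.87 ± 0.12 in brm-1, 6.59 ± 0.07 in ga1-3 and 7.22 ± 0.14 in wild type. FLA1, FLA7 and FLA8 were called in the double mutant against ga1-3 and not against brm-1, whereas FLA11 (4.62 ± 0.64 in the double mutant, 6.05 ± 0.07 in brm-1, 3.78 ± 0.48 in ga1-3 and 4.86 ± 0.63 in wild type) was called against brm-1 and not against ga1-3. The FLA11 means of the double mutant and of ga1-3 were near background, so the difference between them may be understated. None of the 4 FLA genes was called against the wild type. Over 11 cell wall and surface lipid genes grouped after the values were seen, which is a description only, 10 were higher in brm-1 and the median position was 0.546 (0.31 over the 137 genes). The double mutant was called in the ga1-3 direction in 2, in the brm-1 direction in none and not called in 9, against 12% higher and 11.6% lower of all probe sets.

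ARF11, HB-8 and TCP15, regulators higher in brm-1, stood near the wild type in the double mutant. ARF11, an auxin response factor, averaged 4.93 ± 0.11 in the double mutant, 6.35 ± 0.39 in brm-1, 3.31 ± 0.11 in ga1-3 and 4.71 ± 0.15 in wild type. HB-8, a class III HD-ZIP factor of the vasculature, had 5.28, 5.40 and 5.57 in the double mutant, 6.55, 6.16 and 6.72 in brm-1, 4.84, 4.86 and 3.84 in ga1-3 and 5.60, 5.51 and 5.17 in wild type. Both overlapped the wild type in the double mutant and were called against each single mutant, ARF11 by -1.43 ± 0.17 against brm-1 (adjusted p = 0.000903) and 1.61 ± 0.17 against ga1-3 (adjusted p = 0.000118). HB-8 differed by -1.06 ± 0.26 (adjusted p = 0.0228) and 0.90 ± 0.26 (adjusted p = 0.0216). TCP15, a TCP factor that restrains cell proliferation and was named after its values were seen, showed the same order, with means of 7.03 ± 0.17 in the double mutant, 8.59 ± 0.26 in brm-1, 6.03 ± 0.55 in ga1-3 and 7.04 ± 0.43 in wild type. A group of 4 auxin-related genes (ARF11, SAUR9, AT1G75580 and AT3G53250) was put together after the values were seen, so its counts are a description. The double mutant was called in the brm-1 direction in 1, in the ga1-3 direction in 1 and not called in 2, with positions of 0.323 to 0.943. Over all probe sets 12% were higher and 11.6% lower in the double mutant than in the wild type.

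SEP3, a MADS-box factor that specifies floral organs, had 8.41, 7.02 and 7.44 in the double mutant, 8.60, 8.37 and 7.81 in brm-1, 5.97, 5.22 and 4.18 in ga1-3 and 7.34, 7.29 and 7.03 in wild type. The double mutant overlapped brm-1 and the wild type and was called against ga1-3 (2.50 ± 0.44, adjusted p = 0.00194). Of the 10 flower markers 4 were measured under a name, and their summed signal on the linear scale was 182 to 397 in the double mutant, 322 to 485 in brm-1, 107 to 137 in ga1-3 and 241 to 271 in the wild type. SEP3 and PI, another MADS-box factor of floral organs, make up most of this sum, and SEP1 and SEP2 were near background in all 4 lines. SEP1 fell in brm-1 (-1.46, adjusted p = 0.0117) and in the double mutant (-2.001, adjusted p = 0.00113). SEP2 fell in ga1-3 (-1.499, adjusted p = 0.0215) and in the double mutant (-1.84, adjusted p = 0.0027). Near background these falls may be understated. Of the 4 markers, 3 fell in the double mutant and none rose, so the sum does not stand for each marker. PI had 5.46, 5.38 and 4.36 in the double mutant, 6.03, 6.55 and 6.41 in brm-1, 5.71, 6.18 and 6.23 in ga1-3 and 5.96, 6.03 and 6.01 in wild type. It fell by 0.93 ± 0.27 in the double mutant (adjusted p = 0.0198) and was not called in either single mutant. SEP3 itself was called against the wild type in ga1-3 (-2.10 ± 0.44, adjusted p = 0.0119). Its rise of 1.04 ± 0.44 in brm-1 was not called (adjusted p = 0.127). PI thus did not share the fall of SEP3 in ga1-3. The part of floral tissue in these levels was not tested, and in bulk shoots fewer cells of a type and less RNA per cell cannot be told apart.

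Transporters of nitrate and peptides of the NPF family formed a further small group. AT1G52190 had 10.17, 10.51 and 10.53 in the double mutant, 10.98, 11.09 and 11.09 in brm-1, 9.49, 9.06 and 9.21 in ga1-3 and 10.23, 10.59 and 10.39 in wild type. AT3G16180 had 9.35, 9.10 and 9.45 in the double mutant, 9.63, 9.78 and 9.57 in brm-1, 8.23, 8.20 and 7.85 in ga1-3 and 8.89, 8.95 and 8.62 in wild type. AT2G40460 had 5.91, 6.16 and 6.53 in the double mutant, 6.79, 6.61 and 6.83 in brm-1, 4.58, 4.65 and 3.95 in ga1-3 and 6.03, 5.42 and 5.49 in wild type. In each the double mutant lay above ga1-3 (differences of 1.15, 1.21 and 1.81, all called) and was not called against the wild type. SCPL11, a serine carboxypeptidase-like protein of the acyltransferase clade, had the same order, with 6.47 ± 0.18 in the double mutant, 7.11 ± 0.32 in brm-1, 4.68 ± 0.46 in ga1-3 and 5.96 ± 0.35 in wild type.

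The double mutant was called with ga1-3 in 7 of the genes higher in brm-1. CYP706A3, a cytochrome P450, had 2.89, 2.91 and 3.06 in the double mutant, 6.45, 6.36 and 5.17 in brm-1, 2.86, 3.23 and 3.40 in ga1-3 and 4.38, 4.55 and 4.37 in wild type. The double mutant overlapped ga1-3 and fell by 1.48 ± 0.29 against the wild type (adjusted p = 0.00246), with the double mutant, ga1-3 and the wild type all near background. AT3G53250, annotated as auxin-responsive and named after its values were seen, had 3.28, 3.30 and 3.40 in the double mutant, 7.09, 6.31 and 6.45 in brm-1, 3.10, 3.05 and 3.25 in ga1-3 and 3.84, 4.05 and 4.07 in wild type. It was clearly detected in brm-1 only, and the double mutant was 3.29 ± 0.17 below brm-1 (adjusted p = 4.25e-06).

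AT4G01130, annotated as an acetylesterase, had 3.40, 4.78 and 4.68 in the double mutant, 7.12, 7.29 and 8.37 in brm-1, 2.60, 2.60 and 2.61 in ga1-3 and 6.71, 6.76 and 6.47 in wild type. It fell by 2.36 ± 0.38 in the double mutant (adjusted p = 0.000813), which lay between ga1-3 and the wild type. The means of the double mutant and of ga1-3 were near background, so their differences from the wild type may be understated. The remaining ones called with ga1-3 were ADS1, AT3G48970 (copper-binding family), AT1G56710 (polygalacturonase family) and 1 probe set with no gene name.

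Some genes with large opposite differences were near background or variable. AT5G47330 had 7.26, 8.04 and 8.48 in the double mutant, 8.90, 7.73 and 11.21 in brm-1, 5.39, 5.54 and 6.38 in ga1-3 and 7.41, 6.98 and 7.56 in wild type, so that its brm-1 mean rests partly on the third array. AT5G22460 averaged 3.74 ± 0.68 in the double mutant, 4.82 ± 0.88 in brm-1, 2.05 ± 0.14 in ga1-3 and 3.26 ± 0.49 in wild type. ASG8, of unknown function, averaged 5.36 ± 0.07 in the double mutant, 6.95 ± 0.46 in brm-1, 4.16 ± 0.70 in ga1-3 and 5.57 ± 0.13 in wild type. The double mutant was called against ga1-3 in each of these 3 genes (for AT5G47330 in 5 and for AT5G22460 in 11 of the 12 fits with 1 array left out) and against brm-1 in ASG8 alone. Among other named genes, PDF1.2 and UGT84A3 were near background in brm-1. So were ARF11, HB-8, ABCG1, FLA11, SCPL11 and AT2G40460 in ga1-3, and FLA11 in the double mutant. Their differences there may be understated. Over all 137 genes, 43 were near background in the double mutant, 33 in brm-1, 44 in ga1-3 and 33 in wild type. Without the genes near background in the wild type, 70 of 104 (67.3%) lay nearer to brm-1. This filter used the wild-type level alone, not the brm-1 or the ga1-3 level that sets the position.

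The interaction term asks whether the double mutant departs from the sum of both single-mutant differences on the log2 scale. It was called, on the adjusted p alone, in 25 of the 137 genes (18.2%, against 8.90% of all probe sets), 19 of them displaced to the brm-1 side of the sum and 6 to the ga1-3 side. It uses the brm-1, ga1-3 and wild-type arrays that also chose the genes. With single arrays left out the count was 12 to 28, and 9 of the 25 genes were called in all 12 such fits. Among the 9 were GLYI7 (-3.27 ± 0.67, adjusted p = 0.0175), FIB2 (2.02 ± 0.24, adjusted p = 0.00224) and AT3G53250 (-2.43 ± 0.25, adjusted p = 0.00122). Also among them were ROPGEF11 (-1.66 ± 0.27, adjusted p = 0.00704) and AT3G05730 (1.79 ± 0.31, adjusted p = 0.00974). Some of these rest on signals near background: GLYI7 in the double mutant, ROPGEF11 in brm-1 and the double mutant, AT3G53250 in all lines but brm-1. In these genes the limit at background can itself move the departure from the sum, and its part was not tested.

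Genes of the same families were counted beside those that met the rule. The counts include the genes that met it, which these same contrasts chose, so they cannot show that a family shared the opposite pattern. These counts rest largely on genes named through the annotation that accompanies the study, which holds mainly genes it called, so they are a description only. Of 15 auxin response factors 8 were measured under a name. Of these, 5 rose in brm-1 and none fell, 3 fell in ga1-3 and none rose, and the medians were 0.67 in brm-1 and -0.05 in ga1-3, against 0.01 and 0.02 over all probe sets. As background for every family here, brm-1 raised 7.09% and lowered 7.58% of all probe sets, while ga1-3 raised 4.06% and lowered 4.74% of them. Only ARF11 met the rule. ARF3 (0.82) and ARF18 (0.71) rose in brm-1, and ARF6 (-0.72) and ARF19 (-0.82) fell in ga1-3. Of 8 fasciclin-like proteins measured, brm-1 raised 3 and lowered 1, and 6 fell in ga1-3. The 3 raised in brm-1 were FLA7, FLA8 and FLA11, all of which met the rule. FLA1, FLA7 and FLA8, chosen by the rule, were among the 6 that fell in ga1-3. FLA2 fell in brm-1 by 0.87 and in ga1-3 by 1.66. FLA13 (-1.89) and FLA18 (-0.82) fell in ga1-3 and were not called in brm-1 (-0.73 and -0.40). The family thus did not move as 1 group in brm-1.

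Of 8 NPF transporters measured, brm-1 had 5 that rose and 1 that fell, while ga1-3 had 1 that rose and 4 that fell. These counts include AT1G52190, AT3G16180 and AT2G40460, which the rule chose for being higher in brm-1 and lower in ga1-3. PTR3 rose in both (2.05 in brm-1 and 1.64 in ga1-3), and NPF6.3, a dual-affinity nitrate transporter and sensor, fell in both (-1.06 and -0.63). NPF2.13 rose in brm-1 (0.99). Of 6 brassinosteroid genes measured, BAS1 alone met the rule. The synthesis enzyme DWF1 rose in brm-1 (0.98), its fellow enzyme CYP90D1 fell there (-1.30), and the transcription factor BES1, whose probe set may detect related transcripts, fell in ga1-3 (-1.04).

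Of 4 salicylate genes measured, UGT74F2 and NIMIN-3 met the rule. EDS16, the isochorismate synthase that makes the salicylate precursor, fell in brm-1 (-1.46). PR1 is the usual marker of salicylate responses. It rose by 4.11 ± 0.90 in brm-1, by 3.66 ± 0.90 in ga1-3 and by 3.69 ± 0.90 in the double mutant. Its wild-type arrays (2.68, 2.96 and 5.33) varied and had a mean near background, so the size of these rises is uncertain. The members of this list thus did not share 1 direction. Among 5 sinapate genes UGT84A3 and SCPL11 met the rule in opposite directions, and REF1, an aldehyde dehydrogenase that makes sinapate and ferulate, fell in ga1-3 (-0.88). Of 3 suberin and wax genes FAR1 and ABCG1 met it, and KCS20, a fatty acid elongase, fell in ga1-3 (-0.73).

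Of 3 HD-ZIP III factors HB-8 met the rule, and REV, which patterns the upper side of leaves, rose in both (1.21 in brm-1 and 0.87 in ga1-3). Of 2 sucrose transporters SUC1 met it, and SUC4, of the vacuolar membrane, rose in brm-1 (0.81). SUC4 was near background in all 4 lines, so this rise may be understated. Of 6 light-harvesting proteins LHCB4.3 met it, and LHCA6 fell in ga1-3 (-0.92).

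The 137 genes were found on all chromosomes. Of the 115 that could be placed in gene order by the TAIR10.1 annotation, 24, 23, 21, 17 and 30 lay on chromosomes 1, 2, 3, 4 and 5. Pairs of close neighbours were few, 5 in all. AT2G40460 and ASG8 were separated by 1 gene and AT5G22460 and FAR1 by 3 genes, each pair with the same direction. The other 3 pairs had opposite directions: AT1G52190 and ROPGEF11 as well as GLL22 and AT1G54050, with 4 genes between them, and AT1G54050 and ALDH7B4, with 5. On chromosome 4, where ga1-3 and the double mutant may carry DNA of the original ga1-3 line around GA1, 5 of the 115 genes lay within 500 genes of GA1, against 271 of the 10655 array genes that could be placed. They were AT4G00750, AT4G01130, AT4G04630, ALN and SAH7. For them linked DNA and the ga1-3 mutation cannot be told apart.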

How the data were processed

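The authors deposited log2 GC-RMA signals (Partek and GCRMA, in the submitters' processing notes), and the methods add a filter on detection calls, so the table holds 16824 probe sets. The 60 control probe sets were left out. For arrays no read depth exists, and their number limits the precision.

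Values were used as deposited. In R 4.3.3, limma 3.58.1 was fitted with genotype alone over the 12 arrays, with eBayes and Benjamini-Hochberg adjustment over 16764 probe sets, after a test on simulated data. The methods name a two-way ANOVA without its factors, so the 4 genotypes were fitted as groups. The genes, functional groups and lists were chosen with earlier results of these data known.

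Of the probe sets, 9267 were named by the platform annotation and 1700 through annotation accompanying the study; 358 carry several genes and 5439 no name here. Of the 137 genes, 58, 58, 4 and 17 fall in these classes. Named were, per direction, the 12 genes with the largest smaller difference, the 4 in which the double mutant lay farthest from the wild type each way, those on a list, and those next to the limit of the rule; list genes outside the rule were named if called in a single mutant, up to 4 per list. Others are marked as named after their values were seen. Unmarked are those named to complete a count: genes called with ga1-3, grouped genes, close neighbours and genes near GA1. Alternatives were other normalizations, variance models, thresholds, a replicate block and each array left out. The replicate numbers did not pair the samples. Figures were drawn with matplotlib 3.10.9.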

Additional observations from a re-analysis of the deposited data

Results flagged for a closer look

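A called interaction is a brm-1 effect that differed between the ga1-3 and the wild-type background. The term uses the brm-1, ga1-3 and wild-type arrays that also chose the genes, so its count is a description. It was called in 25 of the 137 genes (18.2%, against 8.90% of all probe sets). Among the genes named by the rule these were GLYI7 (-3.27), CYP706A3 (-1.78), ROPGEF11 (-1.66) and AT4G00750 (-1.10), with a double mutant lower than the sum of both differences, and AT2G43590 (3.01), FAR1 (1.60) and SUC1 (1.05), with a double mutant higher than the sum. GLYI7 and ROPGEF11 were called in all 12 fits with 1 array left out, AT2G43590 in 8, CYP706A3 and SUC1 in 6, FAR1 in 5 and AT4G00750 in 4. The double mutant was near background for GLYI7, CYP706A3, ROPGEF11 and AT4G00750. So were brm-1 for ROPGEF11 and AT4G00750, ga1-3 for AT2G43590, and ga1-3 and the wild type for CYP706A3. The part of these levels in the interactions was not tested.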

How the results depend on the processing

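The number of genes that meet the rule depended on its limits: 76 at a minimum difference of 0.8, 42 at 1, 209 without the condition on ranges, and 80 where both differences also had to be called. Of the 42 genes chosen at 1, 30 (71.4%) lay nearer to brm-1. The count of called interactions, 25, was 15 without the second and 12 without the third wild-type array, 12 and 15 without the first and the second ga1-3 array, 12 without the first array of the double mutant, and 14 and 15 without the first and the second brm-1 array, a range of 12 to 28 over the single arrays left out. Under normalization, centring, intensity trend, a fold change of 2, left-out dim probe sets, genes with 1 name and single arrays left out, genes called against the wild type numbered 37 to 48 in the brm-1 direction and 10 to 13 in the ga1-3 direction, and 95 to 113 differed from ga1-3 and 40 to 59 from brm-1. Chosen again without brm-1 replicate 3, which was tried after seeing the data, 103 of 149 genes (69.1%) lay nearer to brm-1. Replicate numbers deviated together in 1 of 18 pairs only (correlations of -0.198 to 0.119), so they do not pair the samples. With the replicate block 46 and 12 genes were called against the wild type, 111 against ga1-3 and 53 against brm-1, and 17 interactions. Of 738 values of the 41 genes named by the rule, for the double mutant against the wild type under the normalizations, intensity trend, replicate block, left-out dim probe sets, fold change of 2 and single arrays left out, 722 kept their call or lack of it, 8 gained a call (JAL33, FLA1 and AT2G40460) and 8 lost it (LTI30 in 6, and BAS1 and SUC1 at a fold change of 2). Signals near background limit 43 genes in the double mutant.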
